A study of Homo sapiens with 6 samples.

Results

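Kinesins are motor proteins that use ATP to move along microtubules. The genes described here were the protein-coding genes whose symbol is KIF followed by digits and at most 2 letters, and 40 of the 19863 protein-coding genes in the count tables met that rule. By the known roles of their products, 13 were grouped as mitotic kinesins, 13 as transport kinesins and 13 as other kinesins. The last, KIF1BP, encodes a protein that binds kinesins and is not itself a motor. The grouping is a judgement on which the class counts rest, and KIF2A, KIF18B and KIF24 could be placed otherwise. KIF2B, a spindle kinesin, and KIF19, a kinesin of motile cilia, had 0 reads in every library. If reads were independent, this would allow up to 3 reads, or 0.0306 to 0.0362 TMM-scaled CPM, in a library. Both mates of a pair were counted, so the level allowed is higher than that. The other 38 genes passed a filter on low counts, and 33 of them averaged 1 CPM or more over all libraries. KIF4B, KIF5A, KIF5C, KIF6 and KIF25 had reads but averaged less. KIFC1, KIFC2, KIFC3 and CENPE are kinesins whose symbols fall outside the rule, and they are described only beside the members.

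Mitotic kinesins build and separate the spindle, move chromosomes on it and finish cytokinesis, and cells make most of them in G2 and mitosis. Transport kinesins carry vesicles, organelles and ciliary cargo toward microtubule plus ends and are needed in cells that do not divide. Promoters of genes expressed late in the cell cycle often hold a CCAAT box, read by the factor NF-Y, and a cell cycle genes homology region (CHR), read by complexes of the MuvB core.

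RefSeq promoter windows (GRCh38.p14), each from 250 bases before to 50 after a transcription start, were matched by symbol for 33 of the 40 genes and searched on both strands for CCAAT and for a CHR, spelled TTTGAA or TTCGAA. The second spelling is its own reverse complement, and a copy of one motif that shared a letter with the other was counted for both. A CHR lay in 11 of the 14 windows of mitotic kinesins (78.6%), in 1 of the 16 windows of transport kinesins (6.2%) and in 1 of the 12 windows of other kinesins (8.3%), against 16.4% of all 35116 windows in the table. The 2 windows of KIF22 overlap and hold the same copy. By gene, a CHR lay in 10 of 13 mitotic, 1 of 11 transport and 1 of 9 other kinesin genes, against 5336 of all 27305 genes. CCAAT lay in 71.4% of mitotic, 31.2% of transport and 33.3% of other kinesin windows, against 34.6% of all windows. Both motifs lay in a window of 9 of the 13 mitotic genes, 1 of 11 transport genes and 1 of 9 other kinesin genes, against 2143 of all 27305 genes. By window, both lay in 64.3% of mitotic, 6.2% of transport, 8.3% of other kinesin and 6.4% of all windows. The transport gene with both was KIF5B, and the other kinesin gene with both was KIF24. The KIF24 window (chr9:34329219-34329518) lies upstream of the gene span used for its counts, which ends at 34311371. Among mitotic kinesins, no CHR was found in the windows of KIF20A, KIF2B and KIF2C. The stretches below start 90 bases before the RefSeq start and are shown because they pair 2 mitotic genes that fell deeply (KIF11 and KIF14) with 2 that changed less (KIF18B and KIF4A), beside KIF1C, the transport kinesin with the highest mean level per kb of exon, whose window held neither motif. They are given 5′ to 3′ on the gene's strand, with CCAAT (or ATTGG on the other strand) and the CHR (or TTCAAA on the other strand) in capitals. KIF11 is at chr10:92593040-92593137 (+), KIF14 at chr1:200620744-200620841 (−), KIF18B at chr17:44947766-44947863 (−), KIF4A at chrX:70290014-70290097 (+) and KIF1C at chr17:4997860-4997955 (+).
KIF11: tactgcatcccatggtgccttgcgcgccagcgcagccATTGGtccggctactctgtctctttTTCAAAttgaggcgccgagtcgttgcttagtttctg
KIF14: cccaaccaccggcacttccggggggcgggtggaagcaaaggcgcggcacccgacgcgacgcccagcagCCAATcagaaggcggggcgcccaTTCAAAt
KIF18B: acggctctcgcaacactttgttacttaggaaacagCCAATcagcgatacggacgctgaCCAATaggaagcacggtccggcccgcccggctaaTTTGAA
KIF4A: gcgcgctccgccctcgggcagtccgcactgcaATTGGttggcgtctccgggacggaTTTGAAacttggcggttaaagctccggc
KIF1C: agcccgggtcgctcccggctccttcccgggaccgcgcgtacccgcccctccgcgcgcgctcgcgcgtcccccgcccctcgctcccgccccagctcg
The 4 mitotic genes carry CCAAT upstream of the CHR. KIF18B has 2 copies of CCAAT, and KIF1C has none of these letters in the stretch or in the rest of its window. A match describes the letters only.

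The RNA was that of 786-0, a long-established human cell line of clear cell renal carcinoma, with the genotype SETD2 KO in every library. SETD2 is the methyltransferase for trimethylation of histone H3 lysine 36. The groups were DMSO, the vehicle, and decitabine at 100 nM or 300 nM, a cytidine analogue that enters DNA and traps DNA methyltransferases. Dosing was daily for 3 days, medium was renewed on day 4 and cells were collected on day 5. Each group had 2 libraries. The labels give no library with intact SETD2 among the samples analysed here, and they do not say how the knockout was made or whether the line is 1 clone. Whether the 2 libraries of a group stem from separate cultures is not stated either, so p-values reflect only the spread between libraries, which may be technical.

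The libraries held 89159112 to 96646427 reads assigned to genes. SETD2 stood at 77.9 and 81.2 CPM with DMSO, 39.8 and 49.1 CPM at 100 nM and 16.4 and 21.7 CPM at 300 nM, and a gene-level count does not test a knockout that leaves a transcript. Renal and clear cell markers summed to 5652 and 5759 CPM with DMSO, 5244 and 5285 CPM at 100 nM and 6721 and 5893 CPM at 300 nM. Members of that list moved both ways at 300 nM, with 7 of 14 higher and 6 lower. CDH6 (cadherin 6), ITGB1 (integrin beta 1) and PAX8, a renal lineage factor gene, fell (log2 -3.05, -1.93 and -1.66), and KRT18, a keratin gene, rose (log2 2.28). VIM, an intermediate filament gene of this carcinoma, was at 1778 and 1859 CPM with DMSO. CA9, a clear cell carcinoma marker, had 0 reads in both DMSO libraries, while every marker of the list had reads in each treated library. Log2 fold changes of the renal and clear cell list at 300 nM ran from -3.05 to 7.75. Of 15 blood, endothelial and fibroblast markers, 1 reached 1 CPM in each DMSO library, 4 did at 100 nM and 8 to 10 at 300 nM, with summed levels of 19.2 and 21.4 CPM with DMSO, 876 and 844 CPM at 100 nM and 1021 and 932 CPM at 300 nM. COL1A1, a fibroblast collagen gene, made up nearly all of these sums, and without it they were 2.95 and 3.78 CPM, 15.4 and 13.8 CPM, and 19.3 and 12.6 CPM. At 300 nM COL1A1, the collagen gene COL3A1, the integrin gene ITGAM and the proteoglycan gene LUM rose (log2 5.82, 3.28, 2.92 and 1.16). CD3E, a T cell gene, had 0 reads in both DMSO libraries and at most 0.0725 CPM elsewhere. The part of these markers in the kinesin values was not tested. In bulk RNA, fewer cells in mitosis and less RNA per cell cannot be told apart.

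Mitotic kinesins were lower at both doses, with no member higher. Against DMSO, 11 of the 12 tested fell at 100 nM, with a median log2 fold change of -0.80, and 9 of 12 fell at 300 nM, with a median of -0.98. Over all 23160 genes tested, 24.0% were called higher and 18.7% lower at 100 nM, and 34.8% higher and 31.1% lower at 300 nM, with medians of 0.03 and 0.05. A call is an adjusted p under 0.05 in edgeR's quasi-likelihood test, adjusted by Benjamini-Hochberg over all genes tested. Among the 15386 protein-coding genes tested, 28.3% were higher and 23.4% lower at 100 nM, and 40.9% higher and 34.4% lower at 300 nM. At 300 nM the class split: 5 members were at least 8-fold lower than with DMSO, while KIF2C, KIF22 and KIF4B did not pass the test. KIF5B and KIF21A, outside the class, also fell at least 8-fold, and the share of all genes that did so was not computed. The median of the mitotic kinesins stayed below 0 under every alternative tried at both doses.

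The 5 deep falls were in spindle and cytokinesis motors. KIF20B, a motor of the spindle midzone needed in cytokinesis, stood at 108 and 116 CPM with DMSO, 24.9 and 36.8 CPM at 100 nM and 3.65 and 4.10 CPM at 300 nM. KIF14, which acts with citron kinase at the midbody, stood at 69.6 and 73.9 CPM with DMSO, 13.3 and 20.5 CPM at 100 nM and 3.12 and 2.60 CPM at 300 nM. KIF18A, which moves to microtubule plus ends and aligns chromosomes, stood at 32.1 and 33.8 CPM with DMSO, 8.94 and 11.7 CPM at 100 nM and 2.15 and 2.19 CPM at 300 nM. In each of these genes the 3 groups did not overlap, and the 100 nM libraries lay between the others. Lack of overlap was common, however. Of the 38 tested members, 37 did not overlap DMSO at 100 nM, 37 at 300 nM, and 34 did not overlap between the doses. These included KIF4B and KIF13B against DMSO, which had no call. The share of all genes was not computed, so lack of overlap is a description only. KIF11, the motor that pushes spindle poles apart and the target of the inhibitor monastrol, stood at 132 and 144 CPM with DMSO, 44.6 and 55.6 CPM at 100 nM and 13.4 and 15.5 CPM at 300 nM. KIF15, which can stand in for KIF11 in keeping the spindle bipolar, stood at 32.7 and 34.2 CPM with DMSO, 11.6 and 15.1 CPM at 100 nM and 3.90 and 4.18 CPM at 300 nM. Both followed the same order of groups without overlap.

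At 300 nM against DMSO, the log2 fold changes were -4.85 ± 0.18 (SE) for KIF20B (adjusted p = 4.8e-13), -4.65 ± 0.19 for KIF14 (adjusted p = 2.3e-12) and -3.93 ± 0.17 for KIF18A (adjusted p = 3.3e-12). KIF11 was 9.54-fold lower (log2 -3.25 ± 0.14, adjusted p = 2.6e-12) and KIF15 was 8.27-fold lower (log2 -3.05 ± 0.16, adjusted p = 3.1e-11). At 100 nM against DMSO the same 5 genes were 2.51-fold to 4.25-fold lower, with KIF15 the least and KIF14 the most changed of them. KIF18A overlaps METTL15 on the other strand, and the counting did not separate strands.

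**Figure D1:**
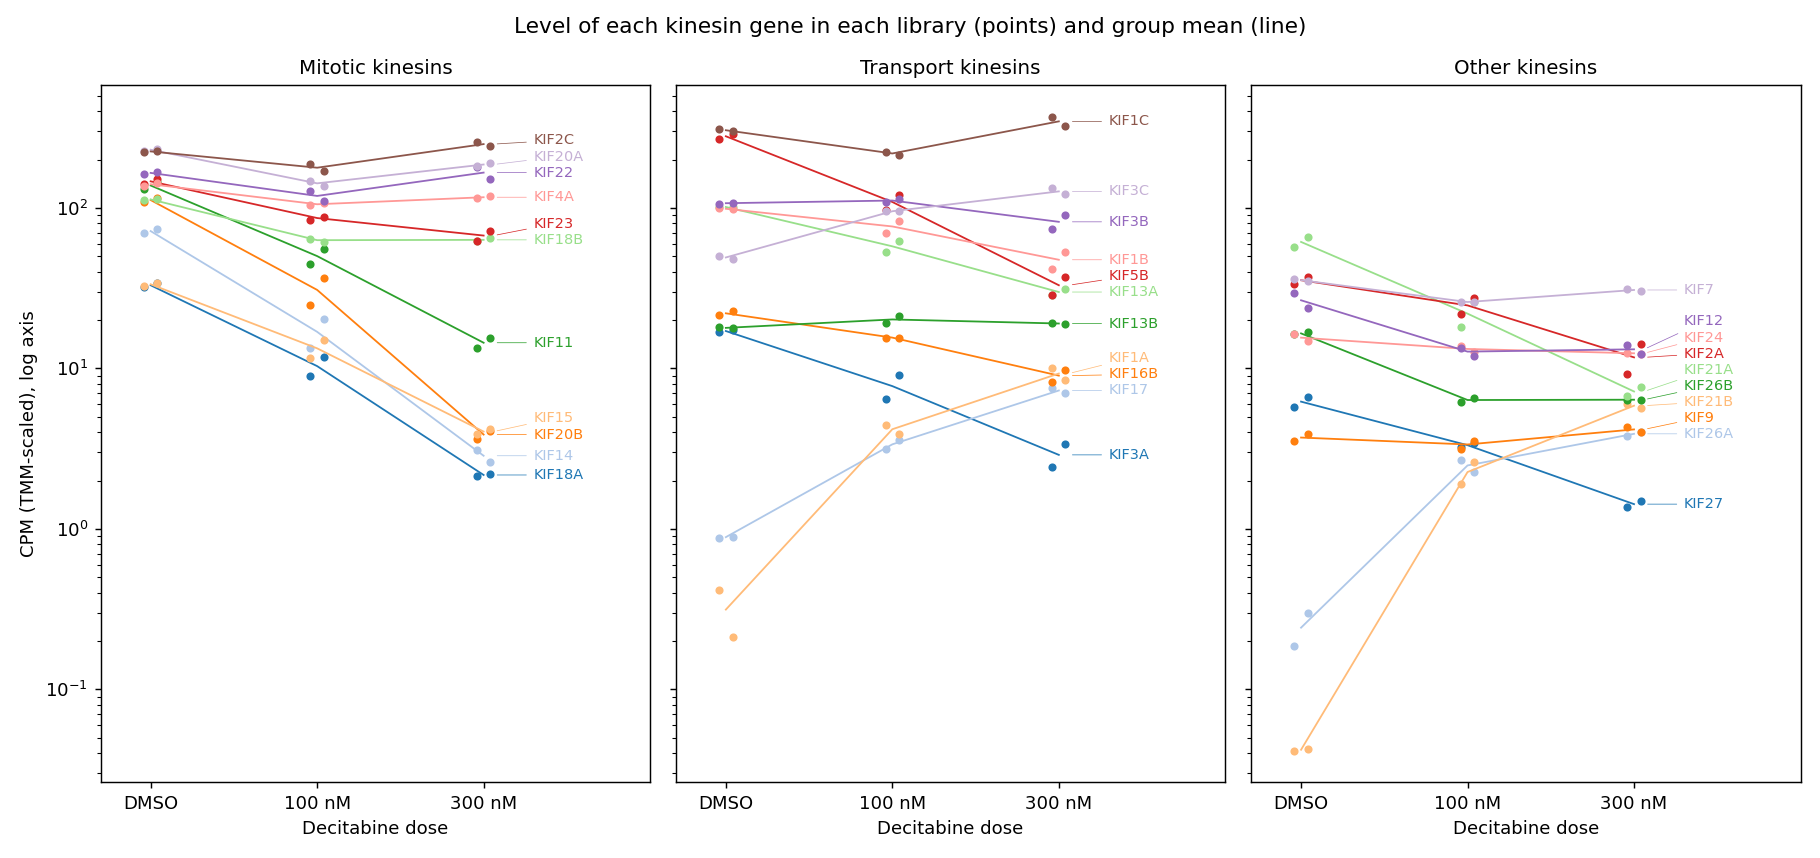
Level of each kinesin gene in each library (points) and group mean (line), in CPM scaled by TMM on a log axis, for DMSO, 100 nM and 300 nM decitabine, in 3 panels for mitotic, transport and other kinesins that averaged at least 1 CPM. KIF20B, KIF14, KIF18A, KIF11 and KIF15 drop at each dose, KIF2C and KIF22 return to about their DMSO level at 300 nM, and KIF1A, KIF17, KIF21B and KIF26A climb from under 1 CPM.

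KIF23 and KIF18B fell by less. KIF23, the motor subunit of centralspindlin, which bundles midzone microtubules, stood at 141 and 152 CPM with DMSO, 84.6 and 88.4 CPM at 100 nM and 62.6 and 71.9 CPM at 300 nM. Its log2 fold change was -0.76 ± 0.11 at 100 nM (adjusted p = 2.0e-05) and -1.12 ± 0.11 at 300 nM (adjusted p = 8.9e-08), which was -0.36 once exon length and GC content were entered as offsets. KIF18B, which shortens astral microtubules, stood at 112 and 114 CPM with DMSO, 64.4 and 61.5 CPM at 100 nM and 62.0 and 64.6 CPM at 300 nM. The 2 doses overlapped in KIF18B, both lay below DMSO, and the log2 fold change was -0.84 ± 0.10 at each dose.

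The remaining mitotic motors with substantial levels were lower at 100 nM and nearer to DMSO at 300 nM. KIF20A, which brings the chromosomal passenger complex to the midzone, stood at 227 and 234 CPM with DMSO, 148 and 137 CPM at 100 nM and 182 and 191 CPM at 300 nM. The 300 nM libraries lay between the other groups without overlap, and the gene was 1.31-fold higher at 300 nM than at 100 nM (adjusted p = 0.004). Against DMSO its log2 fold change was -0.70 ± 0.10 at 100 nM (adjusted p = 1.9e-05) and -0.31 ± 0.10 at 300 nM (adjusted p = 0.011). The call at 300 nM was lost without either DMSO library (adjusted p = 0.070 and 0.116). KIF20A overlaps BRD8 and CDC23 on the other strand.

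KIF4A, a chromokinesin that limits the length of midzone microtubules, stood at 138 and 143 CPM with DMSO, 104 and 107 CPM at 100 nM and 115 and 118 CPM at 300 nM. It fell at both doses (log2 -0.42 and -0.27, adjusted p = 0.003 and 0.024), and the call at 300 nM was lost without either DMSO library (adjusted p = 0.109 and 0.201). KIF4B, a near copy of KIF4A without introns, had 16 to 44 reads a library and no call, and reads of KIF4A could be split between them. KIF2C, which takes tubulin off microtubule ends and corrects faulty kinetochore attachments, stood at 224.7 and 225 CPM with DMSO, 187 and 169 CPM at 100 nM and 258 and 242 CPM at 300 nM. The fall at 100 nM (log2 -0.34 ± 0.10, adjusted p = 0.010) was no longer called without either DMSO library or without the second 100 nM library (adjusted p = 0.097, 0.102 and 0.155). At 300 nM the log2 fold change of KIF2C was 0.15 ± 0.10 (adjusted p = 0.185), and it was -0.35 with the same offsets. KIF22, a chromokinesin that pushes chromosome arms away from the poles, stood at 163 and 168 CPM with DMSO, 128 and 110.0 CPM at 100 nM and 180.5 and 152 CPM at 300 nM. Its DMSO and 300 nM libraries overlapped, with a log2 fold change of 0.01 ± 0.11 (adjusted p = 0.963) that was -0.78 with the same offsets.

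Transport kinesins moved in both directions, as did protein-coding genes (28.3% higher and 23.4% lower at 100 nM, 40.9% and 34.4% at 300 nM). Against DMSO, 5 of 13 rose and 6 fell at 100 nM, and 5 rose and 6 fell at 300 nM, with median log2 fold changes of 0.06 and 0.09 that were -0.09 and -0.11 with the length and GC offsets. The 6 that fell at 300 nM were KIF5B, KIF3A, KIF13A, KIF16B, KIF1B and KIF3B, and the 5 that rose were KIF1A, KIF17, KIF5A, KIF5C and KIF3C. KIF5B, the kinesin-1 heavy chain that carries mitochondria, vesicles and lysosomes in most cells, stood at 271 and 289 CPM with DMSO, 97.1 and 121 CPM at 100 nM and 28.8 and 37.2 CPM at 300 nM. The 3 groups did not overlap, and KIF5B was 2.57-fold lower at 100 nM (adjusted p = 2.1e-07) and 8.47-fold lower at 300 nM (log2 -3.08 ± 0.14, adjusted p = 6.1e-12) than with DMSO. KIF3A, which pairs with KIF3B or KIF3C in the heterotrimeric kinesin-2 of cilia, stood at 16.8 and 17.4 CPM with DMSO, 6.43 and 9.09 CPM at 100 nM and 2.43 and 3.36 CPM at 300 nM. It was likewise lower at each dose without overlap (log2 -2.56 ± 0.19 at 300 nM, adjusted p = 3.7e-09).

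The 2 partners of KIF3A changed less or the other way. KIF3B stood at 107 and 108 CPM with DMSO, 109 and 114 CPM at 100 nM and 73.7 and 90.2 CPM at 300 nM. It had no call at 100 nM (log2 0.06 ± 0.11, adjusted p = 0.726) and fell at 300 nM (log2 -0.39 ± 0.11, adjusted p = 0.006), a call that upper-quartile scaling removed (adjusted p = 0.288). KIF3C stood at 50.2 and 48.1 CPM with DMSO, 95.7 and 95.1 CPM at 100 nM and 132 and 121 CPM at 300 nM. KIF3C rose at both doses without overlap (log2 0.96 ± 0.10 at 100 nM, adjusted p = 9.7e-07, and 1.37 ± 0.10 at 300 nM, adjusted p = 4.4e-09). Mean levels per kb of exon were 19.8 CPM for KIF3C and 13.4 CPM for KIF3B at 300 nM, against 7.68 CPM for KIF3C and 17.5 CPM for KIF3B with DMSO, so that their order turned.

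The kinesin-3 motors differed among themselves. KIF13A, which carries recycling endosomes and melanosome cargo, stood at 101 and 102 CPM with DMSO, 53.1 and 62.2 CPM at 100 nM and 28.5 and 31.3 CPM at 300 nM. The groups did not overlap and the log2 fold change was -1.76 ± 0.12 at 300 nM (adjusted p = 8.0e-10). KIF1B, which carries mitochondria and synaptic vesicle precursors, and KIF16B, which moves early endosomes, fell at 300 nM (log2 -1.05 ± 0.13, adjusted p = 1.5e-06, and log2 -1.29 ± 0.14, adjusted p = 3.0e-07) and less at 100 nM (log2 -0.37 and -0.50). With the length and GC offsets KIF1B had no call at 100 nM (log2 -0.15, adjusted p = 0.138) and was at -0.45 at 300 nM. KIF13B, near kin of KIF13A, had no call at either dose (log2 0.17 and 0.09). KIF1C, which carries vesicles and integrins, stood at 310.1 and 299.7 CPM with DMSO, 224 and 213 CPM at 100 nM and 371 and 322 CPM at 300 nM. It was lower at 100 nM (log2 -0.48 ± 0.10, adjusted p = 9.1e-04), had no call at 300 nM (log2 0.18 ± 0.10, adjusted p = 0.118) and was 1.58-fold higher at 300 nM than at 100 nM (adjusted p = 5.5e-05).

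Apart from KIF3C, the transport motors that rose stood below 1 CPM with DMSO. KIF1A, which carries synaptic vesicle precursors in neurons, had 40 and 20 reads with DMSO and stood at 0.416 and 0.213 CPM there, 4.45 and 3.91 CPM at 100 nM and 10.1 and 8.51 CPM at 300 nM. It was 29.4-fold higher at 300 nM than with DMSO (log2 4.88 ± 0.26, adjusted p = 3.9e-11). KIF17, a kinesin-2 of cilia and dendrites, stood at 0.884 and 0.894 CPM with DMSO, 3.13 and 3.60 CPM at 100 nM and 7.54 and 7.03 CPM at 300 nM, and was 8.19-fold higher at 300 nM (log2 3.03 ± 0.20, adjusted p = 5.2e-10). Both genes rose without overlap between any groups. KIF5A and KIF5C, the kinesin-1 heavy chains of neurons, stayed at or below 1.01 CPM in every library and rose at 300 nM by log2 2.82 ± 0.43 (adjusted p = 2.2e-05) and 1.96 ± 0.45 (adjusted p = 0.001). At 300 nM KIF5B still stood at 5.61 mean CPM per kb, against 0.149 for KIF5A and 0.0758 for KIF5C.

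**Figure D2:**
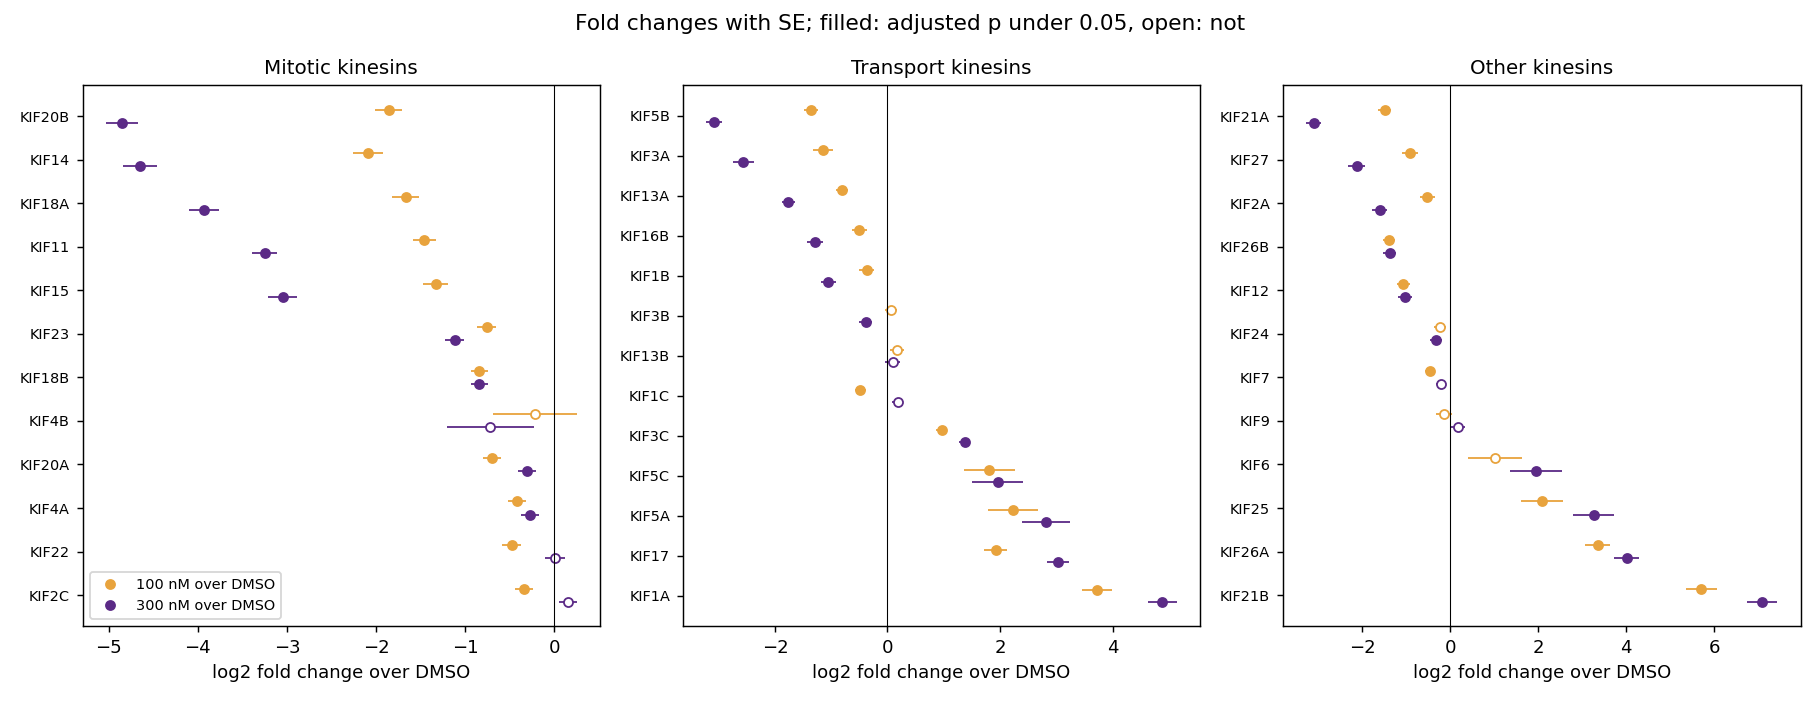
Log2 fold change over DMSO at 100 nM (orange) and 300 nM (purple) for each kinesin gene that passed the low-count filter, with bars of 1 SE, filled where the adjusted p was under 0.05. All mitotic points at 300 nM lie between -4.85 and 0.15, while transport points span -3.08 to 4.88 and other kinesins -3.09 to 7.08.

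The other kinesins, which regulate microtubule growth, cilia or signalling, also split. The shares of protein-coding genes were 28.3% higher and 23.4% lower at 100 nM, and 40.9% and 34.4% at 300 nM. Against DMSO, 3 of 12 rose and 6 fell at 100 nM (median log2 -0.34), and 4 rose and 6 fell at 300 nM (median log2 -0.26). KIF21A, which restrains microtubule growth at the cell cortex, stood at 57.4 and 65.5 CPM with DMSO, 18.1 and 25.8 CPM at 100 nM and 6.75 and 7.62 CPM at 300 nM. It was 8.54-fold lower at 300 nM without overlap (log2 -3.09 ± 0.17, adjusted p = 4.7e-11). KIF21B, its paralogue known from neurons and lymphocytes, had 4 reads in each DMSO library, 188 and 241 reads at 100 nM and 498 and 540 reads at 300 nM. That is 0.0416 and 0.0426 CPM with DMSO, 1.92 and 2.61 CPM at 100 nM and 6.02 and 5.70 CPM at 300 nM. Its log2 fold change, 5.70 ± 0.35 at 100 nM (adjusted p = 7.5e-10) and 7.08 ± 0.34 at 300 nM (adjusted p = 1.2e-11), was the highest of the kinesins at both doses. With so few DMSO reads, KIF21B passed the low-count filter only through its treated libraries, so its p-values and rank are a description only. Mean levels per kb of exon came close at 300 nM, at 0.710 CPM for KIF21A and 0.482 CPM for KIF21B, against 6.07 CPM for KIF21A and 0.00346 CPM for KIF21B with DMSO.

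KIF26A and KIF26B, kinesins without known motility, went opposite ways as well. KIF26A stood at 0.187 and 0.298 CPM with DMSO, 2.70 and 2.27 CPM at 100 nM and 3.79 and 4.03 CPM at 300 nM, a rise of log2 4.01 ± 0.28 at 300 nM (adjusted p = 1.1e-09). KIF26B, needed for kidney development in the mouse, fell by about the same amount at both doses (log2 -1.38 ± 0.14 and -1.37 ± 0.14). KIF2A, a tubulin depolymerase related to KIF2C, stood at 33.8 and 37.1 CPM with DMSO, 21.8 and 27.6 CPM at 100 nM and 9.28 and 14.2 CPM at 300 nM. It was lower at each dose without overlap (log2 -1.59 ± 0.17 at 300 nM, adjusted p = 4.2e-07). KIF12, known from renal and biliary epithelium, stood at 29.5 and 23.7 CPM with DMSO, 13.5 and 12.0 CPM at 100 nM and 14.1 and 12.3 CPM at 300 nM. The doses overlapped each other and not DMSO, with log2 -1.06 ± 0.15 and -1.02 ± 0.15 (adjusted p = 1.4e-05 and 9.8e-06).

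Of the kinesins known from cilia, KIF27 fell at both doses and KIF9 at neither. KIF7, which acts at the tip of the cilium in Hedgehog signalling, stood at 35.9 and 35.1 CPM with DMSO, 26.0 and 25.8 CPM at 100 nM and 31.2 and 30.5 CPM at 300 nM. It fell at 100 nM (log2 -0.45 ± 0.12, adjusted p = 0.004) and had no call at 300 nM (log2 -0.20, adjusted p = 0.132), where it was called lower with the length and GC offsets (adjusted p = 6.1e-08). It overlaps TICRR on the other strand. KIF24, which holds back the growth of cilia from centrioles, stood at 16.4 and 14.7 CPM with DMSO, 13.8 and 12.7 CPM at 100 nM and 12.5 and 12.3 CPM at 300 nM. Its call at 300 nM (log2 -0.32 ± 0.13, adjusted p = 0.044) was lost without any 1 of the 6 libraries (adjusted p = 0.055 to 0.318). KIF27, a paralogue of KIF7 linked to motile cilia, stood at 5.78 and 6.64 CPM with DMSO, 3.23 and 3.42 CPM at 100 nM and 1.37 and 1.49 CPM at 300 nM, and fell without overlap (log2 -2.12 ± 0.19 at 300 nM, adjusted p = 3.3e-08). KIF9, which works in motile cilia, had no call (log2 -0.14 and 0.17), but the offsets brought one at 100 nM (log2 -0.40, adjusted p = 0.039). KIF25 and KIF6, with 8 to 93 reads and 10 to 46 reads a library, rose at 300 nM (log2 3.26 ± 0.47, adjusted p = 1.0e-05, and 1.95 ± 0.59, adjusted p = 0.008), and KIF25 overlaps KIF25-AS1 on the other strand. Like KIF21B, KIF25 passed the low-count filter only through its treated libraries. KIF1BP, the binding protein, had no call at 100 nM (log2 0.06) and fell at 300 nM (log2 -0.28 ± 0.11, adjusted p = 0.025), and was at -0.22 (adjusted p = 0.019) and -0.69 with the offsets.

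Set against each other as classes, mitotic and transport kinesins both lost summed level, and the mitotic class lost more at 100 nM. Mitotic kinesins summed to 1380.2 and 1439 CPM with DMSO, 819 and 813 CPM at 100 nM and 886 and 868 CPM at 300 nM. Transport kinesins summed to 996 and 1003 CPM with DMSO, 699 and 742 CPM at 100 nM and 725 and 705 CPM at 300 nM. The ratio of the mitotic to the transport sum was 1.39 and 1.43 in the DMSO libraries, 1.17 and 1.10 in those of 100 nM and 1.22 and 1.23 in those of 300 nM. Each treated ratio lay below both DMSO ratios, but on the TPM scale, which divides reads by exon length, the order held only at 100 nM. There the ratio was 2.31 and 2.36 in the DMSO libraries, 2.07 and 1.90 in those of 100 nM and 2.31 and 2.31 in those of 300 nM. With 2 libraries a group an exact two-sided permutation test cannot go below p = 0.333, so the sums are given as values.

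Between the doses, 3 of 12 mitotic kinesins were higher and 6 lower at 300 nM than at 100 nM, beside 20.0% of all genes higher and 23.4% lower (4623 and 5431 genes, and 6314 and 4239 with upper-quartile scaling). Among protein-coding genes, 26.5% were higher and 28.5% lower. The 3 that were higher were KIF20A, KIF22 and KIF2C, by 1.31-fold, 1.40-fold and 1.40-fold (adjusted p = 0.004, 0.002 and 7.2e-04). Without the second 100 nM library, 1 of the 3 calls, that of KIF2C, remained. With the length and GC offsets KIF22 lost its call (log2 0.13, adjusted p = 0.142) and KIF4A gained one (log2 0.27, adjusted p = 0.003). The 6 that were lower were the 5 deep falls and KIF23, whose difference (log2 -0.36, adjusted p = 0.012) was 0.22 with the length and GC offsets. Transport kinesins were higher in 4 of 13 and lower in 6 (median log2 -0.08), and other kinesins were higher in 3 of 12 and lower in 3 (median log2 0.15). The group means fell at each dose step in 7 mitotic, 5 transport and 4 other kinesins, and climbed at each step in 0 mitotic, 5 transport and 4 other kinesins. The share of all genes with such ordered means was not computed, so these counts are a description only. Over both comparisons with DMSO, 19 of the 38 tested members were called lower at both doses and 8 were called higher at both. Of all genes tested, 16.4% were lower and 21.7% higher at both doses, and of protein-coding genes 20.5% were lower and 25.8% higher. These comparisons share their DMSO libraries.

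The size of the change lined up with the GC content of the longest annotated transcript. Mitotic members under 45% GC (KIF11, KIF14, KIF15, KIF18A, KIF20B and KIF23) summed to 515 and 555 CPM with DMSO, 188 and 228 CPM at 100 nM and 88.8 and 101 CPM at 300 nM. The 7 mitotic members at 45% GC and over summed to 865 and 884 CPM with DMSO, 631 and 585 CPM at 100 nM and 797 and 768 CPM at 300 nM. The first set made up 37.3% and 38.5% of the class sum in the DMSO libraries, 23.0% and 28.1% of it in those of 100 nM and at most 11.6% in those of 300 nM. The sums of transport kinesins split alike, but they rest on few genes. Those under 45% GC (KIF3A, KIF5B and KIF5C) summed to 288 and 306 CPM with DMSO, 104 and 131 CPM at 100 nM and 31.8 and 41.4 CPM at 300 nM. The 10 others summed to 708 and 697 CPM with DMSO, 595 and 612 CPM at 100 nM and 693 and 663 CPM at 300 nM. KIF5B, at 271 and 289 CPM with DMSO, made up most of the first sum, and KIF5C within it rose (log2 1.96 at 300 nM). Among the 10 others some fell at 300 nM, such as KIF13A (log2 -1.76), and some rose, such as KIF3C (log2 1.37).

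Across the 33 kinesins of at least 1 CPM, GC content and log2 fold change had a Pearson correlation of 0.65 at 100 nM and 0.79 at 300 nM against DMSO. Across all 12432 protein-coding genes of that level it was 0.27 and 0.46. These are correlations across genes of the same 6 libraries, which are not independent replicates. At 300 nM, protein-coding genes under 40% GC had a median log2 fold change of -1.46 and those from 40% to 45% one of -0.66, while the medians were 0.54 from 55% to 60% and 0.59 at 60% and over. Measured against the median of their own GC range, all 11 mitotic kinesins of at least 1 CPM lay below it at both doses, with a median log2 difference of -0.98 at 100 nM (range -1.60 to -0.45) and -1.38 at 300 nM (range -3.39 to -0.21). Of 11 transport kinesins, 6 lay below the median of their range at 100 nM and 8 at 300 nM, and of 10 other kinesins, 8 did at each dose. At 300 nM the log2 difference from the range median was -3.39 for KIF20B, -3.19 for KIF14, -1.79 for KIF11, -1.62 for KIF5B and -0.46 for KIF23.

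**Figure D3:**
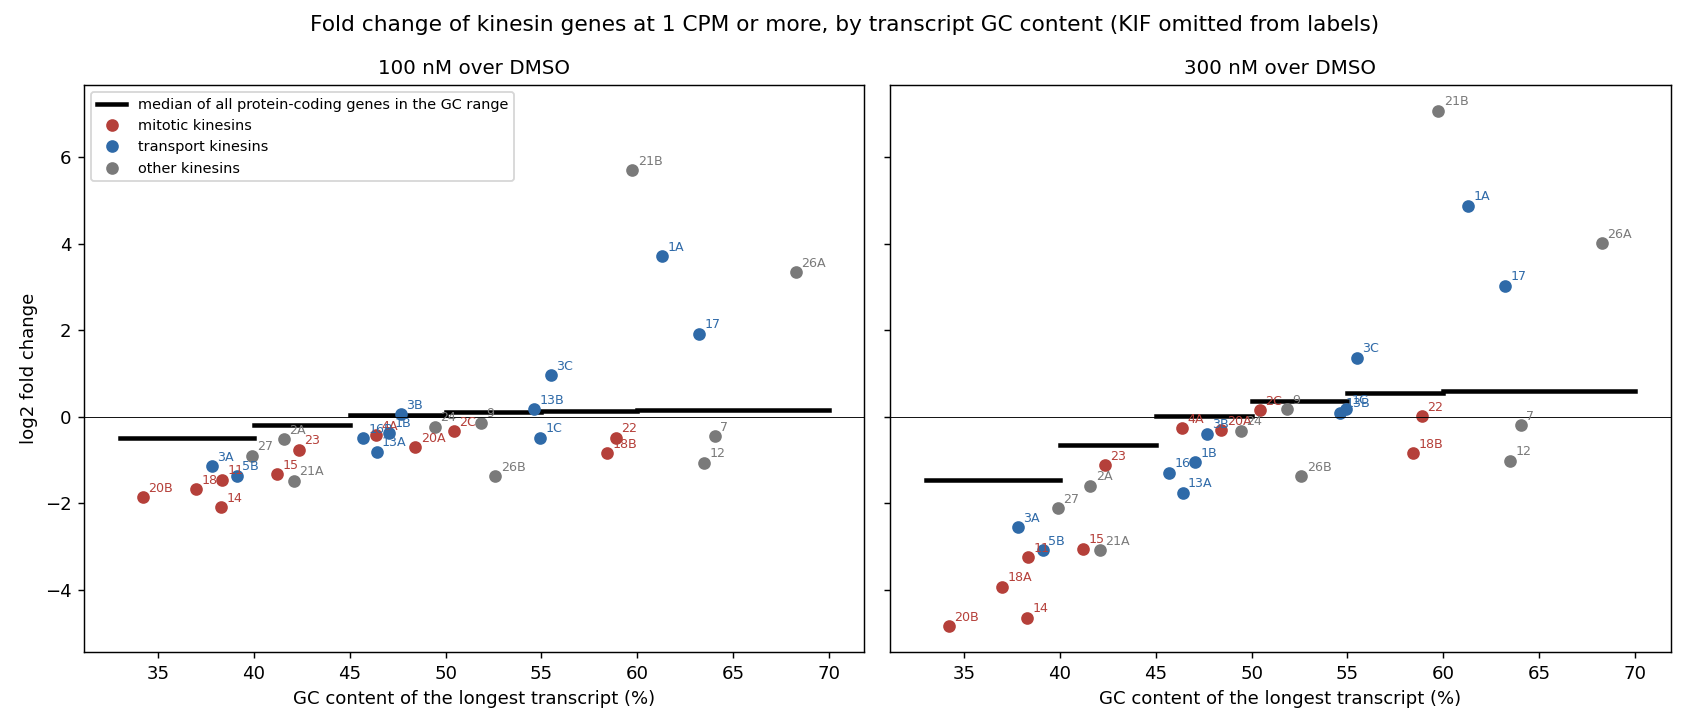
Log2 fold change over DMSO at 100 nM (left) and 300 nM (right) against GC content of the longest transcript in percent, for kinesins of at least 1 CPM, with black bars at the median of all protein-coding genes in each GC range. Kinesins under 40% GC lie at or below -0.90 at 100 nM and at or below -2.12 at 300 nM, under the bars at -0.48 and -1.46.

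Offsets fitted as smooth functions of exon length and GC content in each library were then added to the fit. They turned the balance of all 23160 genes tested at 100 nM, with 5330 higher and 6982 lower against 5564 and 4331 without them. At 300 nM the balance turned as well, with 7108 higher and 8234 lower against 8060 and 7203. Against DMSO, 11 of 12 mitotic kinesins were then lower and 0 higher at each dose, with medians of -1.06 at 100 nM and -1.17 at 300 nM. Transport kinesins were higher in 5 and lower in 5 at 100 nM, and higher in 5 and lower in 6 at 300 nM. The deep falls at 300 nM became smaller, to -3.06 for KIF20B, -3.20 for KIF14, -2.57 for KIF18A, -2.03 for KIF11, -2.20 for KIF15 and -1.87 for KIF5B. KIF3A, KIF21A, KIF27 and KIF2A were likewise nearer to 0, at -1.10, -2.04, -1.08 and -0.88. Falls became larger in KIF18B (58.4% GC, to -1.57), KIF12 (63.5% GC, to -2.02) and KIF20A (48.4% GC, to -0.63). KIF26B, at 52.6% GC, was at -1.28 against -1.37 without the offsets. KIF1A remained at 4.60 and KIF21B at 6.83.

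**Figure D4:**
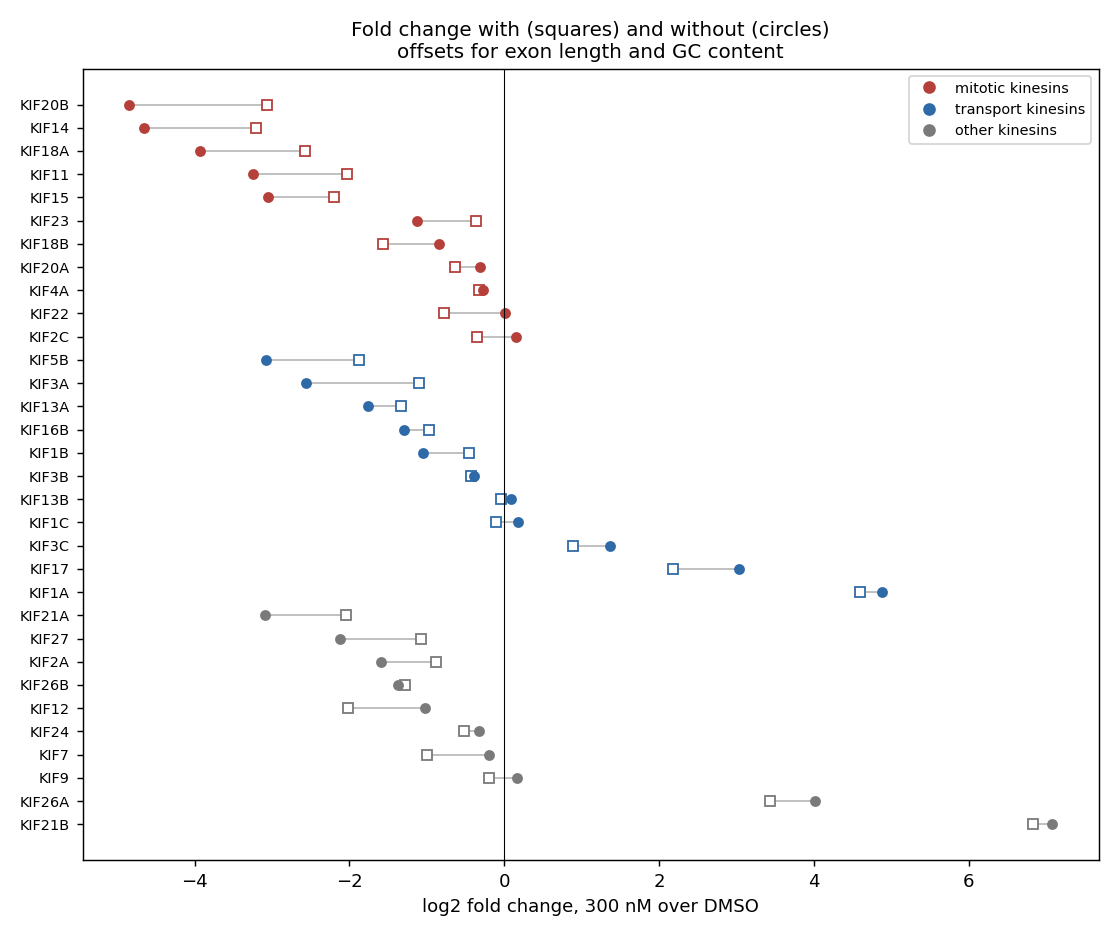
Log2 fold change at 300 nM over DMSO with exon length and GC offsets (open squares) and without them (filled circles), for kinesins of at least 1 CPM, coloured by class. Squares of the mitotic kinesins all lie below 0, and squares of KIF1A, KIF17, KIF3C, KIF21B and KIF26A all lie above it.

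The 4 kinesins outside the symbol rule had log2 fold changes from -5.10 to 1.48 at 300 nM. CENPE, the kinetochore kinesin that brings chromosomes to the spindle equator, stood at 71.7 and 66.8 CPM with DMSO, 11.2 and 18.3 CPM at 100 nM and 2.25 and 1.81 CPM at 300 nM (log2 -5.10 ± 0.21 at 300 nM, adjusted p = 2.7e-12). KIFC1, the minus-end motor that focuses spindle poles, fell at 100 nM (log2 -0.33, adjusted p = 0.012) and had no call at 300 nM (log2 0.05, adjusted p = 0.696), as KIF2C and KIF22 did, and like theirs its value at 300 nM turned with the length and GC offsets (log2 -0.81, adjusted p = 3.0e-08). KIFC2 fell and KIFC3 rose at 300 nM (log2 -1.27 ± 0.12, adjusted p = 3.8e-08, and log2 1.48 ± 0.11, adjusted p = 2.1e-09).

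Light chains, the kinesin-2 accessory subunit and cargo adaptors were higher in 6 of 19 and lower in 3 at 100 nM (median log2 0.17). Their counts at 300 nM were 9 higher and 5 lower (median log2 0.23). Both pairs of counts were near the protein-coding shares of 28.3% and 23.4% at 100 nM and 40.9% and 34.4% at 300 nM. Once the offsets were entered, 5 of the 19 rose and 4 fell at 100 nM (median log2 0.05). That fit gave 7 rises and 5 falls at 300 nM (median log2 0.14). KTN1, the kinesin receptor kinectin of the endoplasmic reticulum, stood at 212 and 230.5 CPM with DMSO, 84.3 and 100.2 CPM at 100 nM and 16.8 and 20.8 CPM at 300 nM. Its log2 fold change at 300 nM was -3.56 ± 0.14 (adjusted p = 7.7e-13), and -1.38 with the length and GC offsets. The scaffold gene MAPK8IP2 and the light chain gene KLC3 rose at 300 nM (log2 3.25 and 2.32), and the scaffold gene MAPK8IP3 fell (log2 -0.96). Of 25 dynein and dynactin genes, whose motor walks the opposite way, 2 were higher and 3 lower at 100 nM, beside 28.3% and 23.4% of protein-coding genes. At 300 nM, 10 were higher and 9 lower, near the shares of 40.9% and 34.4% among protein-coding genes. The dynein heavy chain gene DYNC1H1 stood at 519 and 533 CPM with DMSO, 399.5 and 443 CPM at 100 nM and 294 and 308 CPM at 300 nM (log2 -0.81 ± 0.10 at 300 nM, adjusted p = 1.2e-06), which was -0.19 with the length and GC offsets. The light intermediate chain gene DYNC1LI2 and the light chain gene DYNLT3 fell by 1.20 and 1.16 on the log2 scale at 300 nM, and the light chain gene DYNLRB1 rose by 0.89. With the offsets DYNLT3 turned to 0.24 (adjusted p = 0.020), DYNC1LI2 was at -0.53 and DYNLRB1 at 0.34.

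Calls in genes that act beside mitotic kinesins were mostly lower at 100 nM and went both ways at 300 nM, where the length and GC offsets changed the balance. At 100 nM, 14 of 32 partners, 10 of 20 proliferation markers and 12 of 24 regulators had no call. Without the offsets, 28.3% of protein-coding genes were higher and 23.4% lower at 100 nM, and 40.9% and 34.4% at 300 nM. Of 32 spindle and cytokinesis partners, 0 were higher and 18 lower at 100 nM, and 6 higher and 17 lower at 300 nM (medians -0.41 and -0.46). With the offsets 1 was higher and 26 lower at 100 nM, and 3 higher and 21 lower at 300 nM. Of all 23160 genes tested, the offsets gave 5330 higher and 6982 lower at 100 nM, and 7108 and 8234 at 300 nM. ASPM, a spindle pole protein gene, HAUS6, a subunit of augmin, ANLN, the cleavage furrow scaffold, and ECT2, which centralspindlin recruits, had log2 fold changes of -5.33, -3.12, -2.48 and -2.34 at 300 nM, all called, and of -3.53, -1.61, -1.38 and -1.01 with the offsets. Proliferation markers were higher in 0 of 20 and lower in 10 at 100 nM, and higher in 7 and lower in 8 at 300 nM (medians -0.23 and 0.01). The counts at 300 nM were near the shares among protein-coding genes. With the offsets they were higher in 0 and lower in 17 at 100 nM, and higher in 1 and lower in 14 at 300 nM (medians -0.54 and -0.27). TOP2A and MKI67 fell at 300 nM by 2.82 and 1.90 on the log2 scale, and BUB1B and BUB1, mitotic checkpoint kinases, by 1.49 and 1.19 (-1.55, -1.59, -1.07 and -0.50 with the offsets). Of 24 regulators of cell cycle transcription, 2 were higher and 10 lower at 100 nM, and 6 higher and 13 lower at 300 nM. With the offsets 3 were higher and 13 lower at 100 nM, and 7 higher and 12 lower at 300 nM. RB1 and RBL1, which repress such genes, and E2F8, a repressor of the E2F family, fell at 300 nM by 2.57, 2.41 and 1.63 on the log2 scale, and CDKN1A, the gene of the kinase inhibitor p21, rose by 1.56, and the offsets brought these values to -1.09, -1.32, -1.66 and 0.66. MYBL2 and FOXM1, activators of late cell cycle genes named here after their values were seen, had log2 fold changes of 1.15 (adjusted p = 1.1e-07) and 0.14 (adjusted p = 0.219) at 300 nM. With the offsets MYBL2 was at 0.15 (adjusted p = 0.046) and FOXM1 turned to -0.48 (adjusted p = 5.7e-06).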

How the data were processed

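Reads per gene were deposited as whole-number counts, not normalised, for 58381 genes in each of 6 libraries. The authors made the counts with featureCounts 1.5.0-p3 on GENCODE 28 gene models, per the file headers, and the submitters' processing notes also name STAR, SAMtools and DESeq2. The recorded command names neither paired ends nor strand, so each mate was counted (70.0% to 74.4% of counts from 1 to 10 were even), sense and antisense reads were not separated, and reads on more than 1 gene go by default to none, which 21 of the 40 kinesin genes with an overlapping gene on the other strand may lose. The notes name hg19 and GRCh37, but all 56933 genes with the same versioned identifier in GENCODE v29 had its GRCh38 coordinates, and GRCh38 is used here. The deposited log2 matrix holds values variance-stabilised by the authors, whose function is not given in the sources used here.

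TMM factors scaled the counts, and filterByExpr left 23160 genes. edgeR's quasi-likelihood test, two-sided, was fitted once to all 6 libraries with group as the factor (3 residual degrees of freedom, biological coefficient of variation 11.8%; edgeR 4.0.16, limma 3.58.1, R 4.3.3), adjusted over all genes tested by Benjamini-Hochberg with a threshold of 0.05, and tested on simulated data. CPM are scaled by TMM, and levels between genes were compared per kb of the deposited exon length. GC content is that of the longest GENCODE v29 transcript. Offsets for exon length and GC content came from smooth fits of each library's difference from the mean (mgcv 1.9.3). Floors of 3 reads cover counting error only and take reads as independent, so with each mate counted they are too low. Libraries of a group correlated across genes at 0.996 to 0.9983 in log2 CPM and differed by more than counting error (chi-square of 8.11 to 40.8 per gene).

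The members and lists were chosen with earlier results of these data known. Values per library are given for KIF11, KIF14, KIF20A and KIF23 and, in each class, for the 5 members with the highest mean level per kb and the 5 called members with the largest fold change at 300 nM and a mean of at least 1 CPM. From each list outside the members, up to 4 called genes with the smallest adjusted p at 300 nM and a mean of at least 1 CPM are named, and KIFC1, VIM, CA9, CD3E, MYBL2 and FOXM1 were named after their values were seen. Alternatives were other scalings and filters, DESeq2 1.42.0, limma on the deposited matrix, fits of 2 groups, a replicate block, the offsets, and leaving out each library.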

Additional observations from a re-analysis of the deposited data

How the results depend on the processing

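The 38 tested kinesins had 1809 values under an alternative. Of these, 1685 kept their sign and side of the threshold, 28 had no call in either fit and changed sign, 64 lost a call, 20 gained a call, and 12 changed sign with a call in one fit or both. For the 36 genes named from the other lists, 1625 of 1724 values kept sign and side, and 22 changed sign with a call. All 34 such changes came with the offsets for exon length and GC content, alone or with the replicate block added. At 300 nM against DMSO they were KIF22 and KIF2C (-0.78 and -0.35 in both fits), KIFC1 (-0.81), FOXM1 (-0.48) and DYNLT3 (0.24). At 100 nM against DMSO they were KIF1BP (-0.22), MYBL2 (-0.32), DYNC1H1 (0.05) and DYNLRB1 (-0.03). At 300 nM against 100 nM they were KIF18B (-0.32), KIF23 (0.22), KIF12 (-0.40 and -0.39), BUB1 (0.14), CDH6 (0.12), CDKN1A (-0.07), DYNLT3 (0.09) and LUM (0.02). The same 2 fits called 6982 and 7060 genes lower at 100 nM, and 1 and 1 other kinesins higher at 300 nM than at 100 nM. The cause was not tested. Upper-quartile scaling moved the median log2 fold change of all genes at 300 nM to 0.293 (0.046 with TMM), called 1 mitotic kinesin (KIF2C) higher at 300 nM than with DMSO and 5 other kinesins higher at 300 nM than at 100 nM. The offsets moved that median to -0.113. With at least 1 CPM in 2 libraries, fewer genes were tested, and 3 transport kinesins were higher at each dose and 2 other kinesins at 300 nM. Leaving out each library gave 2883 to 5036 genes lower at 100 nM (lowest without the first 100 nM library) and 2896 to 4901 genes higher at 300 nM than at 100 nM (lowest without the second 100 nM library). It gave 1 to 3 mitotic kinesins higher at 300 nM than at 100 nM (1 without the second 100 nM library) and 1 to 3 other kinesins (1 without the second 100 nM library or either 300 nM library). In these fits the lone library was assumed to vary like the other groups. Summed mitotic levels were 1170.05, 681 and 672 TPM with DMSO, at 100 nM and at 300 nM, and transport levels 501, 343 and 291 TPM, with ratios of 2.33, 1.99 and 2.31. With DESeq2's size factors the mean mitotic sum was 795 CPM at 100 nM and 899.5 CPM at 300 nM, and the transport sum 733 CPM at 300 nM. Same-numbered libraries deviated together only weakly across genes (correlations of 0.121 to 0.267), and with 2 numbers a group the samples are taken to share only a number. The replicate block called 6179 genes higher and 5140 lower at 100 nM, 8344 and 7521 at 300 nM, and moved no kinesin count except other kinesins higher at 300 nM than at 100 nM, which were 4. Members under 1 CPM, with 8 to 93 reads a library, limit the precision of KIF4B, KIF5A, KIF5C, KIF6 and KIF25.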

Other observations

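Genes and pseudogenes named after kinesins that do not code for protein stand outside the rule, and 2 of the 7 in the tables were called against DMSO. KIF25-AS1, on the strand opposite KIF25, had 4 and 2 reads with DMSO, 175 and 163 reads at 100 nM and 176 and 243 reads at 300 nM. Its log2 fold change was 5.75 at 100 nM (adjusted p = 4.9e-09) and 6.16 at 300 nM (adjusted p = 6.5e-10) in edgeR's fit, larger than the 2.08 and 3.26 of KIF25, whose reads cannot be told apart from it by strand. Both genes passed the low-count filter only through their treated libraries, so these p-values are a description only. KIF9-AS1, opposite KIF9, had 167 and 158 reads with DMSO, 198 and 193 reads at 100 nM and 234 and 228 reads at 300 nM, and was called higher at 300 nM (log2 0.61, adjusted p = 0.018), while KIF9 was not called. KIF28P and KIF18BP1, a pseudogene of KIF18B, had 9 to 43 reads a library and no call, and KIF3AP1 had 0 reads in every library.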
